A study of Mus musculus with 6 samples.

Results

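The mature microRNAs (miRNAs) whose hairpins lie in introns of genes of lipid and energy metabolism were followed in mouse renal cortex, 6 names in all: mmu-miR-33-5p and mmu-miR-33-3p from Srebf2, mmu-miR-103-3p from Pank3 and Pank2, mmu-miR-107-3p from Pank1, and mmu-miR-378a-3p and mmu-miR-378a-5p from Ppargc1b. These 6 of the 1900 mature names in the tables were taken by name and host gene, and all 6 were present. Their values were not the criterion, but earlier results of these data were known when they were chosen. The prefix mmu (mouse) is left out from here on. The samples were renal cortex of C57BL/6 mice, an inbred strain. One group of 3 mice ate a diet rich in fat and cholesterol with bile salt (the HF/HC/HS/BA diet) for 8 weeks and is called diet only. The other group of 3 mice ate the same diet with tofogliflozin, an inhibitor of the glucose transporter SGLT2 of the proximal tubule, also for 8 weeks. Every mouse therefore carried the steatohepatitis-inducing diet, and no library from mice on a normal diet was used here. The design gives 3 mice per group, and each library was taken as 1 mouse. The comparison asks whether the drug, given with the diet, changes these miRNAs in the cortex. Host gene mRNA was not analysed here.

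As background, miRNAs of this kind are cut from introns of protein-coding transcripts, so a host gene and its miRNA can share a promoter. Srebf2 encodes the transcription factor that switches on cholesterol synthesis, and miR-33 represses the cholesterol exporter ABCA1 and enzymes of fatty acid oxidation. The Pank genes encode pantothenate kinases, the entry step of coenzyme A synthesis, and miR-103 and miR-107 are known as regulators of insulin sensitivity. Ppargc1b encodes PGC-1β, a coactivator of mitochondrial biogenesis, and miR-378a is known for acting on mitochondrial metabolism and lipid handling.

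The mature sequences of the 4 members with an entry in the RefSeq table (build GRCm38.p6) are shown because they decide which members can be told apart by reads and which share targets. Capitals mark the seed, bases 2 to 8, which pairs with target mRNAs.
miR-33-5p: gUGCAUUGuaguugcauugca
miR-33-3p: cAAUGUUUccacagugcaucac
miR-103-3p: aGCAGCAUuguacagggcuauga
miR-107-3p: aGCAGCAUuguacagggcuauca
MiR-103-3p and miR-107-3p have the same seed and differ over their 23 bases at 1 position, G22C (the base of miR-103-3p, the position from the 5′ end, the base of miR-107-3p). A read that ends before that position fits both. A RefSeq sequence was used for 1603 of the 1900 names. Among these no other name shared a seed with miR-33-5p, miR-33-3p, miR-103-3p or miR-107-3p, and the remaining names were not searched. miR-378a-3p and miR-378a-5p are named only.

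The hairpins show why miR-103-3p cannot be assigned to a single host gene. Capitals mark the mature arms that are members.
Mir103-1: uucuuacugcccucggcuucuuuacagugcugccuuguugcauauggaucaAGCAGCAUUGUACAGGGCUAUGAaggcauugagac
Mir103-2: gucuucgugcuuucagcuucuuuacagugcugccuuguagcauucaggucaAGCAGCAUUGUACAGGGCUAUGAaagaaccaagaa
Mir107: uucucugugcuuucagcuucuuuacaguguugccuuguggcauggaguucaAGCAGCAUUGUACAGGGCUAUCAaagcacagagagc
Mir33: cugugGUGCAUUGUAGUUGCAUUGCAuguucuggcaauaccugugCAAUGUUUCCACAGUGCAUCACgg
Mir103-1 and Mir103-2 were identical at 69 of 86 positions and carried the same mature arm at bases 52 to 74. Mir107 carried its mature arm at the same bases, 52 to 74 of 87.

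By GENCODE M21 on mm10, each hairpin lay inside an intron of its host, on the host's strand, with 0 overlaps with host exons. Mir33 was at chr15:82198122-82198190 on the plus strand, in intron 16 of 18 of Srebf2-201. Mir103-1 was at chr11:35782396-35782481 on the plus strand, in intron 5 of 6 of Pank3-201. Mir103-2 was at chr2:131288052-131288137 on the plus strand, in intron 5 of 6 of Pank2-204. Mir107 was at chr19:34820687-34820773 on the minus strand, in intron 5 of 6 of Pank1-202. The 3 pantothenate kinase genes thus held their hairpins in the intron of the same number, 326 to 688 bases after the upstream exon. Mir378a lay in intron 1 of Ppargc1b-202, also on the host's strand.

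**Figure D1:**
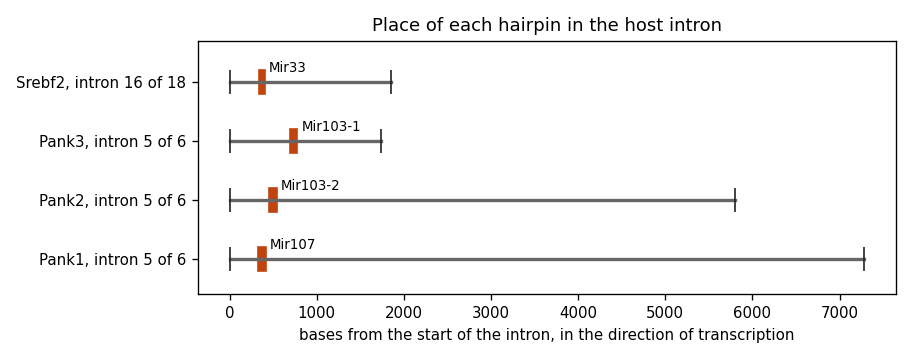
Place of the hairpins of miR-33, miR-103 and miR-107 in their host introns (principal GENCODE M21 transcripts), as bases from the intron's start along the direction of transcription; grey lines are introns and orange boxes hairpins. The hairpins start 335 (Mir33), 688 (Mir103-1), 454 (Mir103-2) and 326 (Mir107) bases into introns of 1848, 1740, 5801 and 7282 bases.

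With the largest row taken for each name, totals ran from 6643638 counts in tofogliflozin replicate 2 to 22886200 counts in diet-only replicate 1. Levels are given as CPM (counts per 1000000 counts of the library, its total scaled by TMM, edgeR's correction for composition), and 3 counts, the limit that a count of 0 allows, stood for 0.132 to 0.448 CPM. Tofogliflozin replicate 2 lay far from the rest: the leading principal component (52.0% of variance) placed it at 13.8 and the other 5 between -6.17 and 0.14, and 75 of the 460 tested miRNAs were over 1 log2 unit off the others' mean in it. Many results of the members and of the other lists are given with and without it. The tubule marker miR-192-5p was at 44707 to 54106 CPM and ranked 5 among all names. In whole cortex, fewer cells of a type and less RNA per cell cannot be told apart.

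The order of the members by level was the same in all 6 libraries, except that the arms of miR-33 could not be ordered in tofogliflozin replicate 2. MiR-378a-3p was highest (median 21950 CPM, rank 14 of all names), followed by miR-103-3p (median 821 CPM, rank 62), miR-107-3p (median 313 CPM, rank 95), miR-378a-5p (median 66.0 CPM, rank 148), miR-33-5p (median 1.29 CPM, rank 395) and miR-33-3p (rank 793). The ranges of neighbours from miR-378a-3p down to miR-33-5p did not overlap over the 6 libraries. In tofogliflozin replicate 2 miR-33-5p had 3 counts (0.447 CPM), and the 0 counts of miR-33-3p there allow up to 0.448 CPM. The 4 members with a sequence are 21 to 23 bases long and counts were not divided by length. All members together took 2.23% to 2.65% of the counts of a library, and miR-378a-3p alone made up 91.7% to 95.7% of the members' counts.

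Under tofogliflozin no member changed past the threshold. Of the 6 members, 5 passed the low-count filter, and 0 of these 5 had an adjusted p under 0.05 in edgeR's quasi-likelihood test with Benjamini-Hochberg adjustment, as for all tested miRNAs (0 of 460, 0%). DESeq2 called 2 of the 460 (miR-204-5p and miR-346-5p) and limma's voom 0, with no member among them. At an unadjusted p under 0.05 there were 0 of the 5 members, against 23 of 460 miRNAs (5%). The groups overlapped for each of the 5, while they did not overlap for 55 of the 460 (12%). All 5 fitted log2 fold changes (tofogliflozin minus diet only) were above 0, with a median of 0.04, against -0.01 over all tested miRNAs. Leaving out tofogliflozin replicate 2 gave 3 above 0 and 2 below.

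**Figure D2:**
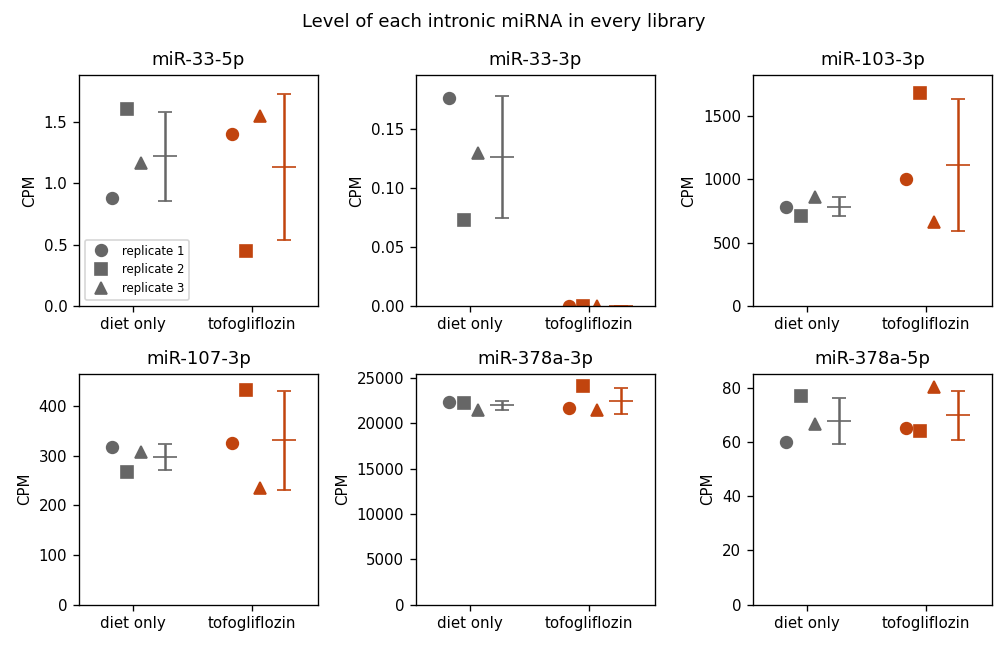
CPM of each member (y axes, linear, from 0) in the 3 diet-only (grey) and 3 tofogliflozin (orange) libraries; points are mice, and bars are the mean and SD of each group. Tofogliflozin replicate 2 (orange square) is the highest library for miR-103-3p (1686 CPM), miR-107-3p (434 CPM) and miR-378a-3p (24096 CPM) and the lowest for miR-33-5p (0.447 CPM).

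MiR-33-5p, the arm that represses ABCA1, was near the limit of detection. It had 20, 22 and 18 counts in diet-only replicates 1, 2 and 3 (0.880, 1.61 and 1.17 CPM). In tofogliflozin replicates 1, 2 and 3 it had 19, 3 and 28 counts (1.41, 0.447 and 1.55 CPM). The tofogliflozin libraries held both a value close to the top and the lowest value, so the groups overlapped. Its log2 fold change was 0.01 ± 0.46 (SE), with a 95% interval of -1.05 to 1.07, so that folds from 0.482 to 2.10 lie within it (adjusted p = 0.996 by edgeR). The difference of the group means of log2 CPM had the other sign, -0.21 (exact permutation p = 0.8, 2-sided, 20 arrangements, smallest possible p 0.1), and was 0.28 without tofogliflozin replicate 2. The 3 counts of that library alone carry a counting error of 57.7%.

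The opposite arm, miR-33-3p, was at 4, 1 and 2 counts in the diet-only libraries (0.176, 0.0731 and 0.130 CPM) and at 0 counts in all 3 tofogliflozin libraries. A count of 0 there allows up to 0.222, 0.448 and 0.166 CPM in replicates 1, 2 and 3. Of the diet-only values only the 0.176 CPM of replicate 1 is above the lowest of these limits. Single libraries therefore hardly separate the groups at this depth, and a limit for the pooled counts of a group was not computed. The groups did not overlap (exact permutation p = 0.1, adjusted p = 0.6 over the 6 members). MiR-33-3p did not pass the filter and was not tested by edgeR with it. With no low-count filter edgeR fitted a log2 fold change of -4.05, and miR-33-3p was not among the 10 of 1026 miRNAs called. MiR-33-3p made up 16.7% of the hairpin's 24 counts in diet-only replicate 1 (95% exact binomial interval 4.74% to 37.4%). In tofogliflozin replicate 3 it made up 0 of 28 counts (95% exact binomial interval 0% to 12.3%), and the limit of 3 counts is a share of 10.7%. Intervals and limits cover counting error only.

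MiR-103-3p showed the largest difference among the tested members, and it rested on a single library. It was at 779.5, 711 and 862 CPM in diet-only replicates 1, 2 and 3 (17709, 9728 and 13265 counts). In tofogliflozin replicates 1, 2 and 3 it was at 1000.1, 1686 and 659 CPM (13524, 11304 and 11921 counts). Replicates 1 and 2 of tofogliflozin were above every diet-only library and replicate 3 below every one. Group means were 784 ± 75.4 and 1115 ± 523 CPM (SD, n = 3 each), and the log2 fold change was 0.51 ± 0.30 (SE), a fold of 1.42 with a 95% interval of 0.875 to 2.31. It did not pass the threshold (p = 0.133, adjusted p = 0.854 by edgeR; exact permutation p = 0.5). Of all tested miRNAs, 16.1% had a log2 fold change of larger size. Without tofogliflozin replicate 2 the log2 fold change was 0.08 (adjusted p = 0.941). Without tofogliflozin replicate 3 it was 0.80, with an unadjusted p of 0.00505 and an adjusted p of 0.204. With no low-count filter the unadjusted p was 0.00549 and the adjusted p 0.279. Adjusted p values over all alternatives ran from 0.204 to 0.988.

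Tofogliflozin replicate 2, which held the highest miR-103-3p level, also held the highest or lowest sum of each marker list. The 7 tubule names summed to 175439 to 183487 CPM on the diet alone and 158777 to 196670 CPM with tofogliflozin, highest in that library. This came mainly through miR-30a-5p (29764 CPM, against 16136 to 21398 CPM in the others) and miR-200b-3p (25127 CPM, against 11248 to 17394 CPM). MiR-204-5p was also highest there (492 CPM). MiR-194-5p was lowest there (2614 CPM, against 3243 to 3709 CPM), and miR-192-5p, miR-10a-5p and miR-215-5p lay within the others' range. The 2 liver names summed to 40.7 to 78.6 CPM on the diet alone and 45.8 to 245 CPM with tofogliflozin, where miR-122-3p was at 0 in every library and the highest value, all of it miR-122-5p, was in that library. Erythroid names (5 of 5 in the files) summed to 91.3 to 326 CPM and 165 to 451 CPM, also highest in that library. Most of this sum was miR-486-5p (211.6 CPM there) and miR-3107-5p (227 CPM there), whose counts were nearly equal in each library and are not taken as separate signals, while miR-451a was higher in diet-only replicate 3 and tofogliflozin replicate 1. Leukocyte names (5 of 5) summed to 122 to 149 CPM and 113 to 161 CPM, highest there mainly through miR-155-5p (88.6 CPM, against 28.6 to 45.0 CPM in the others). MiR-150-5p (46.8 CPM) and miR-142-5p (9.69 CPM) were lowest there. MiR-142-3p was highest there (11.9 CPM, against 6.91 to 11.8 CPM), and miR-223-3p (4.03 CPM) lay within the others' range (2.60 to 4.83 CPM). Without miR-155-5p the sum was 72.5 CPM there and 68.8 to 104 CPM in the others. Striated muscle names (6 of 6, miR-208b-3p at 0 in every library) summed to 99.9 to 129 CPM and 92.8 to 123 CPM, lowest there. Most of this sum was miR-1a-3p (88.4 CPM there, its lowest value), and miR-499-5p was lowest there too. MiR-133a-3p was highest there (2.09 CPM, against 0.292 to 1.28 CPM), miR-206-3p lay within the others' range, and miR-208a-3p was at 0 there. The part of these marker lists in the miR-103-3p difference was not tested.

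The files list miR-103-3p under both of its precursors, and the 2 rows were nearly equal. The Mir103-2 row, in Pank2, exceeded the Mir103-1 row, in Pank3, in all 6 libraries, by 0.447% (tofogliflozin replicate 3) to 2.61% (tofogliflozin replicate 2). With a mature arm that is identical in both hairpins, these rows do not divide the level between the 2 host genes. The 5p arms, which differ between the hairpins, were almost absent: miR-103-1-5p had 0 counts in all 6 libraries and miR-103-2-5p 1 count in all.

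MiR-107-3p, which shares its seed with miR-103-3p, was at 317, 268 and 308 CPM in diet-only replicates 1, 2 and 3. In tofogliflozin replicates 1, 2 and 3 it was at 327, 434 and 234 CPM, so that the groups overlapped and replicates 2 and 3 of tofogliflozin marked both ends. Group means were 298 ± 26.2 and 332 ± 99.7 CPM (SD, n = 3 each). The fitted log2 difference was 0.16 ± 0.22 (SE; adjusted p = 0.894 by edgeR). The value was -0.08 without tofogliflozin replicate 2 and 0.38 without tofogliflozin replicate 3. Its 5p arm had 9, 0 and 8 counts in the diet-only libraries and 4, 0 and 0 in the tofogliflozin libraries, at most 0.169% of the hairpin's counts in a library (95% exact binomial interval 0.0728% to 0.332% in diet-only replicate 3).

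The ratio of miR-103-3p to miR-107-3p, which does not depend on scaling, was 2.46, 2.65 and 2.80 in diet-only replicates 1, 2 and 3. It was 3.06, 3.89 and 2.81 in tofogliflozin replicates 1, 2 and 3. The groups did not overlap, but diet-only replicate 3 and tofogliflozin replicate 3 were nearly equal. The mean log2 ratio was higher by 0.29 with tofogliflozin, a fold of 1.22 (exact permutation p = 0.1, the smallest possible; adjusted p = 0.4 over the 4 ratios compared), and higher by 0.16 without tofogliflozin replicate 2. MiR-107-3p accordingly made up 26.3% to 28.9% of the summed counts of both on the diet alone and 20.5% to 26.2% with tofogliflozin. Reads that end before position 22 could move between the names, and their part was not tested.

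MiR-378a-3p, the most abundant member, was among the steadiest miRNAs of these libraries. It was at 22288, 22235 and 21422 CPM in diet-only replicates 1, 2 and 3 and at 21665, 24096 and 21501 CPM in tofogliflozin replicates 1, 2 and 3. Both groups covered the same range except for tofogliflozin replicate 2, which was above the rest. The coefficient of variation over the 6 libraries was 4.50%, and 6 of the 460 tested miRNAs had a lower one (median of all tested 23.6%). Its log2 fold change was 0.03 ± 0.10 (SE), with a 95% interval of -0.20 to 0.26, or folds of 0.870 to 1.19 (adjusted p = 0.973 by edgeR). The sign turned to -0.02 without tofogliflozin replicate 2, and to -0.0085 with upper quartile size factors.

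The 5p arm of the same hairpin, miR-378a-5p, was at 60.0, 76.9 and 66.7 CPM in diet-only replicates 1, 2 and 3. In tofogliflozin replicates 1, 2 and 3 it was at 65.4, 64.0 and 80.2 CPM, and the groups overlapped. The log2 fold change was 0.04 ± 0.17 (SE; 95% interval -0.35 to 0.44; adjusted p = 0.984 by edgeR), and leaving out diet-only replicate 1 gave -0.02, leaving out tofogliflozin replicate 3 -0.04. The 5p arm took 0.308% ± 0.0382 of the hairpin's counts in diet-only mice and 0.312% ± 0.0543 in tofogliflozin mice (SD, n = 3 each). The log2 ratio of 3p to 5p differed by -0.01 (exact permutation p = 1, adjusted p = 1). The difference in arm use was smaller than the spread between mice.

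Another 3 names share the number of miR-378a-3p and come from other loci, miR-378b, miR-378c and miR-378d. Their log2 fold changes were below 0, at -0.42 ± 0.33, -0.22 ± 0.27 and -0.28 ± 0.17 (SE), and 0 of the 3 passed the threshold (adjusted p = 0.873, 0.877 and 0.854 by edgeR). MiR-378d was at 2105, 2956 and 2112 CPM on the diet alone and 2028, 1702 and 2168 CPM with tofogliflozin, and miR-378c was at 752, 868 and 696 CPM and at 651, 411 and 919 CPM. The groups overlapped for each of the 3 names, with tofogliflozin replicate 2 the lowest library in all of them, where miR-378a-3p was highest. Without that library the values were -0.20, 0.03 and -0.19, and without tofogliflozin replicate 3 they were -0.76, -0.52 and -0.33. The ratio of miR-378a-3p to miR-378d was 14.2 in tofogliflozin replicate 2 and 7.52 to 10.7 in the other 5 libraries, and that to miR-378c was 58.6 against 23.4 to 33.3. These ratios were chosen after the data were seen and were not tested. The sequences of these names were not compared here, and how reads were divided among them was not tested.

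**Figure D3:**
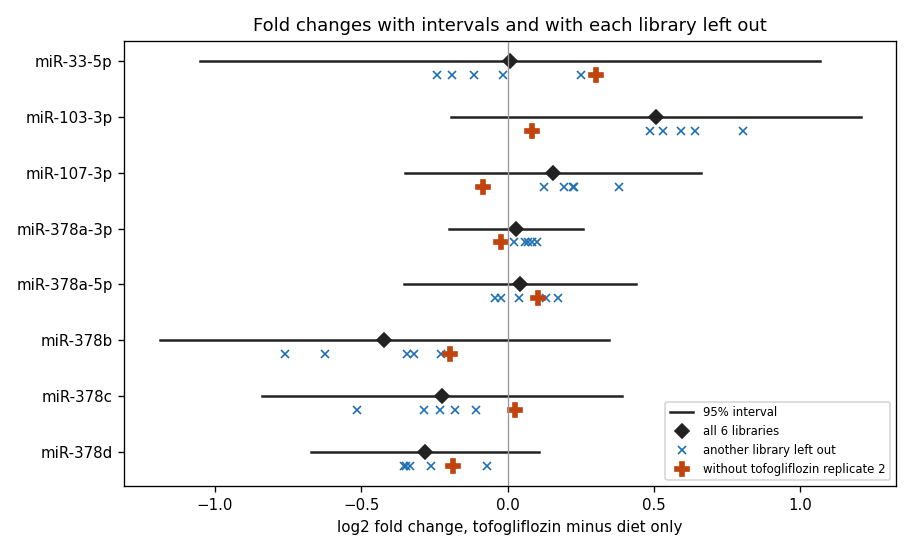
Log2 fold change of the 5 tested members and of miR-378b, miR-378c and miR-378d (x axis, tofogliflozin minus diet only), with 95% intervals as black lines and the values with a library left out as crosses. Every interval includes 0, and leaving out tofogliflozin replicate 2 (orange) moves miR-103-3p from 0.51 to 0.08.

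**Figure D4:**
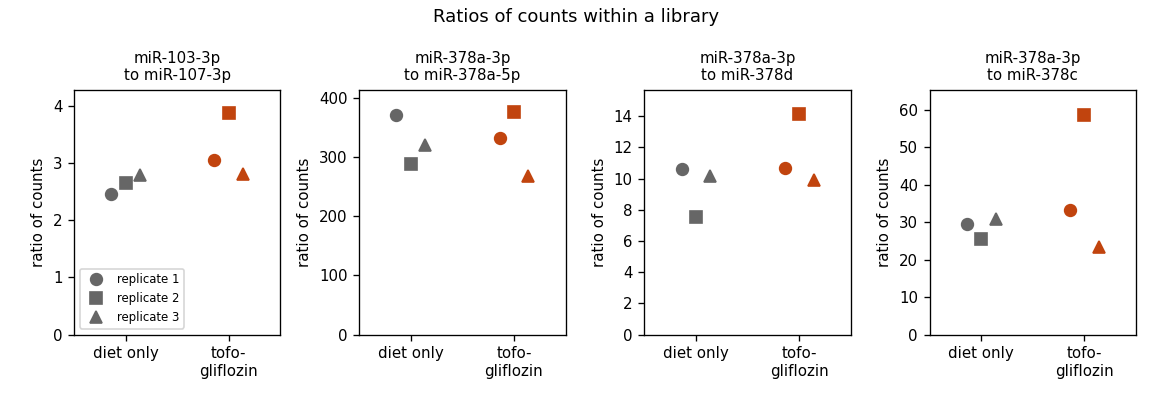
Ratios of counts within each library (y axes, linear, from 0) for miR-103-3p to miR-107-3p and for miR-378a-3p to its 5p arm, to miR-378d and to miR-378c; points are mice. In tofogliflozin replicate 2 (orange square) miR-103-3p to miR-107-3p is 3.89, against 2.46 to 3.06 in the other 5 libraries.

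The 2 remaining ratios set the arms of miR-33 and the miRNAs of Srebf2 and Ppargc1b against each other. The log2 ratio of miR-33-5p to miR-33-3p (pseudocount of 1) was higher by 0.97 with tofogliflozin, with overlapping groups (exact permutation p = 0.4, adjusted p = 0.8), and by 1.65 with a pseudocount of 0.5, since the 3p arm was at 0 in that group. The log2 ratio of miR-33-5p to miR-378a-3p ran from -14.56 to -13.69 on the diet alone and from -15.30 to -13.71 with tofogliflozin. It differed by -0.17 (exact permutation p = 0.8, adjusted p = 1) and by 0.34 without tofogliflozin replicate 2.

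The miRNAs whose levels followed each member most closely over the 6 libraries were found by Pearson's r of log2 CPM among miRNAs of at least 10 CPM. These values describe the libraries, which share depth and composition, and hold no test. MiR-103-3p was most like miR-93-5p (r = 0.995), miR-20a-5p (0.992) and miR-3535 (0.991), which without tofogliflozin replicate 2 stood at 0.974, 0.969 and 0.977. MiR-107-3p was most like miR-200b-3p (0.981), miR-195a-3p (0.975) and miR-877-3p (0.973). MiR-33-5p was most like miR-374b-5p (0.985), miR-152-3p (0.980) and miR-10a-3p (0.977). For miR-378a-3p the leading names were miR-365-2-5p (0.968), miR-541-5p (0.948) and the hepatocyte miRNA miR-122-5p (0.935). Without tofogliflozin replicate 2 these fell to 0.764, 0.869 and 0.514. MiR-378a-5p was most like miR-23a-3p (0.952), miR-196a-1-3p (0.914) and miR-28a-3p (0.824). Between members, r was 0.947 for miR-103-3p with miR-107-3p (0.869 without tofogliflozin replicate 2) and -0.360 for the arms of miR-378a (-0.235 without it). MiR-33-5p stood at -0.884 with miR-107-3p, -0.865 with miR-378a-3p and -0.845 with miR-103-3p. Without that library these were -0.630, -0.286 and -0.250. MiR-103-3p with miR-378a-3p went from 0.795 to -0.234, and miR-107-3p with miR-378a-5p from -0.764 to -0.919. Not every pair is listed.

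The miR-15 group is related to miR-103 and miR-107 by 6 letters, AGCAGC, which start at position 1 of miR-103-3p and miR-107-3p and at position 2 of all 7 group members present. The sequence of miR-16-5p, the most abundant of them, is shown for comparison, with those letters in capitals.
miR-16-5p: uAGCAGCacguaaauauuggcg
Of these 7, 5 had a log2 fold change above 0 and 2 below, with a median of 0.06 (0.14 without tofogliflozin replicate 2), and 0 passed the threshold in edgeR's test. MiR-16-5p was at 267 to 279 CPM on the diet alone and 225 to 259 CPM with tofogliflozin, with no overlap and a log2 fold change of -0.15 ± 0.12 (SE; adjusted p = 0.877 by edgeR), which was -0.081 without tofogliflozin replicate 2.

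Other miRNAs described as acting on cholesterol transport or insulin response were compared as the wider pathway. Of 20 tested, 6 had a log2 fold change above 0 and 14 below, with a median of -0.15, and 0 passed the threshold in edgeR's test. Over all 460 tested, 226 were above 0 and 234 below. The list's direction rested on tofogliflozin replicate 2: without it 9 values lay above 0 and 11 below (median -0.014). MiR-96-5p, described as a repressor of the HDL receptor SR-BI, was at 15.1, 14.3 and 15.1 CPM on the diet alone and 9.91, 13.4 and 6.03 CPM with tofogliflozin, without overlap (log2 fold change -0.62 ± 0.29, adjusted p = 0.854 by edgeR). MiR-370-3p had the smallest p on the other side (0.73 ± 0.39, adjusted p = 0.854). MiRNAs from introns of other genes divided into 12 above and 18 below 0 of 30 tested, with a median of -0.02 and 0 past the threshold in edgeR's test, and leaving out tofogliflozin replicate 2 gave 14 above and 16 below. DESeq2 called miR-346-5p and miR-204-5p of this list. MiR-346-5p (log2 fold change 1.41 ± 0.30) and miR-338-3p (-0.89 ± 0.49) had the smallest p in each direction there.

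Among markers of cell types, 0 miRNAs passed the threshold in edgeR's test, while DESeq2 called the tubule marker miR-204-5p. Of 7 tubule names 4 were above 0 and 3 below (median 0.01), and without tofogliflozin replicate 2 these were 2 and 5 (median -0.080). MiR-204-5p was at 250.5 to 291 CPM on the diet alone and 373 to 492 CPM with tofogliflozin, without overlap (log2 fold change 0.69 ± 0.15, adjusted p = 0.387 by edgeR), and miR-194-5p was at -0.12 on the log2 scale. Without tofogliflozin replicate 2 these were 0.60 and 0.0098. Of 5 leukocyte names 1 was above 0 (miR-155-5p, 0.29) and 4 below (median -0.21, miR-142-5p with the smallest p). Without tofogliflozin replicate 2 all 5 were below 0, with miR-155-5p at -0.26 and a median of -0.44. The 3 erythroid names tested, of which miR-486-5p and miR-3107-5p carry nearly the same counts, were above 0 (median 0.65, miR-3107-5p at 0.67 ± 0.51), with a median of 0.23 without tofogliflozin replicate 2. The tested liver name, miR-122-5p, was at 1.07 ± 0.65, and at -0.18 ± 0.29 without that library. Of the 3 striated muscle names tested 1 was above 0 (miR-206-3p, 0.26) and 2 below (median -0.02, miR-499-5p at -0.18), and all 3 were above 0 without that library (median 0.17).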

How the data were processed

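Small RNA of the renal cortex was sequenced from 6 mice, 3 per group. The authors deposited 1 table of raw read counts per library, with 2033 rows, 1 per mature miRNA and precursor. The submitters' processing notes name cutadapt 1.14 and build mm10. Which aligner, counter and miRBase version made the tables is not given in the sources used here. For the 75 names with several rows the largest count per library was taken.

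All 1900 names entered 1 edgeR 4.0.16 fit (R 4.3.3; TMM, quasi-likelihood F-test, 2-sided, filterByExpr at its defaults, min.count 10 and min.total.count 15, Benjamini-Hochberg over the 460 miRNAs kept, threshold 0.05). SE was taken as the size of the log2 fold change over the root of F. Single levels (log2 CPM, prior count 2) and 4 log2 ratios (pseudocount 1) were compared by exact permutation. The fit was also run on simulated counts with a common dispersion and no outlying library. That run does not show which changes could be found in these data. Alternatives used other size factors, filters and row merging, DESeq2 1.42.0, limma 3.58.1 (voom), the replicate number as a block, and each library left out. Named miRNAs were the members, names of the same hairpin or number, the smallest p per direction of each list and the 3 most alike per member. The members and lists were chosen with earlier results of these data known. MiR-142a and miR-497a were matched to miR-142 and miR-497 of the files. Sequences are from RefSeq (GRCm38.p6) and positions from GENCODE M21 (GRCm38, which is mm10).

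The marker lists were tubule (miR-192-5p, miR-194-5p, miR-215-5p, miR-204-5p, miR-30a-5p, miR-10a-5p, miR-200b-3p), liver, leukocyte, erythroid and striated muscle. The tables hold no molecular identifiers, and PCR copies of a molecule count separately. The values of likeness, lists and named non-members without tofogliflozin replicate 2, the leukocyte sum without miR-155-5p, and the ratios to miR-378b, miR-378c and miR-378d were added after the data were seen.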

Additional observations from a re-analysis of the deposited data

How the results depend on the processing

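No member passed the threshold under any alternative run. The number of miRNAs called, 0 of 460, became 10 of 1026 with no low-count filter and 2 of 460 with DESeq2, and it stayed 0 with each library left out; none of the called names was a member. At these levels the sign of most members was not fixed. The log2 fold change of miR-33-5p was -0.035 when low counts were kept and -0.040 under the replicate block, and ran from -0.24 to 0.30 over the left-out libraries. That of miR-378a-3p was -0.0085 with upper quartile size factors. With a library left out, miR-103-3p ran from 0.083 to 0.80, miR-107-3p from -0.083 to 0.38, miR-378a-3p from -0.024 to 0.10, miR-378a-5p from -0.044 to 0.17 and miR-378c from -0.52 to 0.027. Differences of mean log2 CPM ran from -0.48 to 0.28 for miR-33-5p, -0.10 to 0.34 for miR-107-3p, -0.026 to 0.056 for miR-378a-3p and -0.062 to 0.13 for miR-378a-5p. The log2 ratio of miR-378a-3p to miR-378a-5p ran from -0.13 to 0.12 and that of miR-33-5p to miR-378a-3p from -0.46 to 0.34. The cause was not tested. The ratio of miR-103-3p to miR-107-3p kept its direction, from 0.16 to 0.39 on the log2 scale.

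Replicate numbers were not taken as pairs of mice. Deviations from the group means had r = 0.0027, -0.14 and -0.17 for the 3 numbers, and each library's best match had another number. With 3 libraries per group and tofogliflozin replicate 2 far from the rest, this check cannot show whether the mice were paired. The replicate block gave 0 calls and put miR-103-3p at 0.40. A filter of 10 CPM in 3 libraries left no value for miR-33-5p. The tubule marker median (0.01) became 0.25 and 0.31 without diet-only or tofogliflozin replicate 3, and the erythroid median (0.65) 1.30 without diet-only replicate 3; it was 0.23 when tofogliflozin replicate 2 was left out and 0.35 when diet-only replicate 1 was. The leukocyte median (-0.21) became -0.44 and -0.11 without tofogliflozin replicates 2 and 1, and -0.077 and -0.35 without diet-only replicates 2 and 3. The median of miRNAs of cholesterol and insulin (-0.15) became -0.014 without tofogliflozin replicate 2, and -0.077 and -0.085 without diet-only replicates 1 and 2. With a library left out, the medians of the miR-15 group (-0.11 to 0.24), the other intronic miRNAs (-0.015 to 0.026) and the striated muscle names (-0.0079 to 0.22) took both signs. Depth limits miR-33-5p and miR-33-3p, at 28 and 4 counts or fewer per library.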

Other observations

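Added together, miR-103-3p and miR-107-3p, which share a seed, were at 1097, 979 and 1170 CPM in diet-only replicates 1, 2 and 3. In tofogliflozin replicates 1, 2 and 3 the sum was 1327, 2120 and 894 CPM, so that the tofogliflozin group held both the 2 highest and the lowest libraries. The sum was chosen after the data were seen and was not tested.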
